A study of Sus scrofa with 2 samples.

Results

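Heat-shock proteins and chaperones were examined in the biceps femoris muscle of newborn cloned piglets, where they made up 86 of the 12535 genes with at least 1 uniquely mapped read in either of 2 RNA-Seq libraries. A gene was taken as a member when the protein name in its annotation held a term from a fixed set. The terms were those for heat shock, DnaJ, T-complex, BAG family, alpha-crystallin, chaperonin, prefoldin, HSP70 and HSP90 proteins. Genes with the symbol HSPH1, CRYAB, BAG3 or HSPB8 were taken as well. Chaperones and co-chaperones under other protein names, HSPA5, HYOU1, HSP90B1, HSPB6 and FKBP5 among them, were no members. The families below are therefore not complete. The 86 members comprised 5 small heat-shock proteins, 35 HSP40 (DnaJ) proteins, 10 HSP70/110 proteins, 3 HSP90 proteins, 10 chaperonin subunits, 5 prefoldin subunits, 10 co-chaperones, 5 heat-shock factors and their binding proteins, and 3 entries that matched by name only.

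The abnormal cloned group, whose phenotype is given as developmental failure, was compared with the normal cloned group. Both groups were Day 1 piglets made by somatic cell nuclear transfer, in which the nucleus of a fibroblast replaces that of an oocyte, and no piglet conceived naturally is compared here. Each group was 1 library from pooled RNA, of 3 abnormal piglets and of 4 normal piglets by the study's methods (3 by the labels). All 3 abnormal and 2 of the normal piglets came from fibroblasts of a Day 35 male embryo, while ear fibroblasts of another male gave the other 2 normal piglets, so that donor and group cannot be told apart in full. With 1 library per group there was no replicate check. Every call below compares these libraries and not the conditions, and every 95% interval covers counting error only.

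Chaperones bind proteins that are unfolded, newly made or under stress and help them to reach or regain their fold. The HSP70 and HSP90 machines do so with energy from ATP, HSP40 proteins deliver clients to HSP70, and nucleotide exchange factors such as HSPH1 and BAG3 release them again. Small heat-shock proteins hold unfolded clients without ATP, and in muscle CRYAB and the pair of HSPB8 and BAG3 are known for their place at the Z-disc of the sarcomere.

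The libraries held 6.38 M (abnormal) and 6.52 M (normal) unique reads. Transcripts of the mitochondrial genome took 36.0% (abnormal) and 46.1% (normal) of them. Levels are given in RPKM, reads per kb of transcript scaled to the library total, and log2 ratios are those of the abnormal over the normal RPKM. Over the 7493 genes that reached 10 reads in each library, the median log2 ratio was 0.36. The muscle markers ACTA1 (42258 and 37387 RPKM in the abnormal and normal library) and MYLPF (31441 and 28773 RPKM) were abundant in both, and 3 of the 8 markers of skeletal muscle were found under their symbol. Of the listed markers of other cell types 0 were called higher in the abnormal library, and the liver markers ALB (12 and 271 reads) and FGB (4 and 36 reads) were called lower. A further liver marker, APOA1 (298 and 281 reads), was not called, with a log2 ratio of 0.12. The summed level of the 4 listed fibroblast markers was 1356 and 1508 RPKM, that of the 2 red blood cell markers 478.5 and 693 RPKM, and the adipocyte markers PLIN1 and LEP had at most 2 reads. Smooth muscle markers summed to 290.4 and 334.6 RPKM, macrophage markers to 9.04 and 10.1 RPKM and liver markers to 41.5 and 59.7 RPKM. Sums were higher in the abnormal library for Schwann cell markers (29.6 and 18.5 RPKM) and endothelium markers (41.4 and 38.9 RPKM). The part of cell composition in the values below was not tested. In bulk tissue, fewer cells of a type and less RNA per cell cannot be told apart.

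A larger share of the abnormal than of the normal library fell to the members. The members took 108918 reads, or 1.71% of the abnormal library, and 42417 reads, or 0.651% of the normal library. Their summed level was 12243 RPKM against 4416 RPKM, a ratio of 2.77. This ratio was 2.16 with the shift of the median gene removed, and 2.34 with library totals that leave out mitochondrial transcripts. CRYAB alone gave 37.4% (abnormal) and 17.4% (normal) of the summed member RPKM, and without it the ratio was 2.10 (7664 against 3647 RPKM). Of the 86 members, 20 reached 100 RPKM in the abnormal and 10 did so in the normal library. The like counts over all genes are not given here, and the median gene was itself higher by a log2 value of 0.36.

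A gene was called at an FDR (Benjamini-Hochberg over all 12535 genes, two-sided Audic-Claverie test on reads) of at most 0.001 and a difference of at least 1 on the log2 scale. By this rule 22 of the 86 members (25.6%) were called higher in the abnormal cloned group, where 12.0% of all genes were, and 0 were called lower, where 1.45% of all genes were. Members were read more deeply than other genes, with a median of 424 reads over both libraries against 53 for all genes. Among genes that reached 10 reads in each library, 21 of 69 members (30.4%) and 18.2% of all genes were called higher. Depth still differed there, with a median of 561 reads for the members and 172 for all genes. The median log2 ratio was 0.74 over all members and 0.35 over all genes.

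Since the median gene was itself shifted by 0.36, each value below is set beside that shift. The shift differed with transcript length. After a correction for length, which removes the running median of genes of like length, HSPB1 (703 bases) went from 1.22 to 1.19. HSPH1 (3602 bases) went from 3.68 to 2.98. Relative to genes of like length, the value of 0.36 thus takes off too much for HSPB1 and too little for HSPH1. After the abnormal library was rescaled to remove the shift of 0.36, 15 members (17.4%) were called higher against 6.48% of all genes, and 2 were called lower against 3.97% of all genes. These shares are not matched for read depth. Of the 69 members that reached 10 reads in each library 14 (20.3%) were then called higher, and the like share of all genes is not given here. The 7 members that lost the call were HSPB1, DNAJB5, DNAJB6, HSP70.2, HSP90AA1, HSP90AB1 and CCT3, and the 2 then called lower were DNAJC1 and DNAJC15. With edgeR's exact test and an assumed biological coefficient of variation of 0.2, 8 members were called higher, and with 0.4 the number was 0. This test was run without the rescaling, so that these counts still hold the shift of 0.36. The share of all genes called by it is not given here, and the 8 members cannot be set against it.

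**Figure D1:**
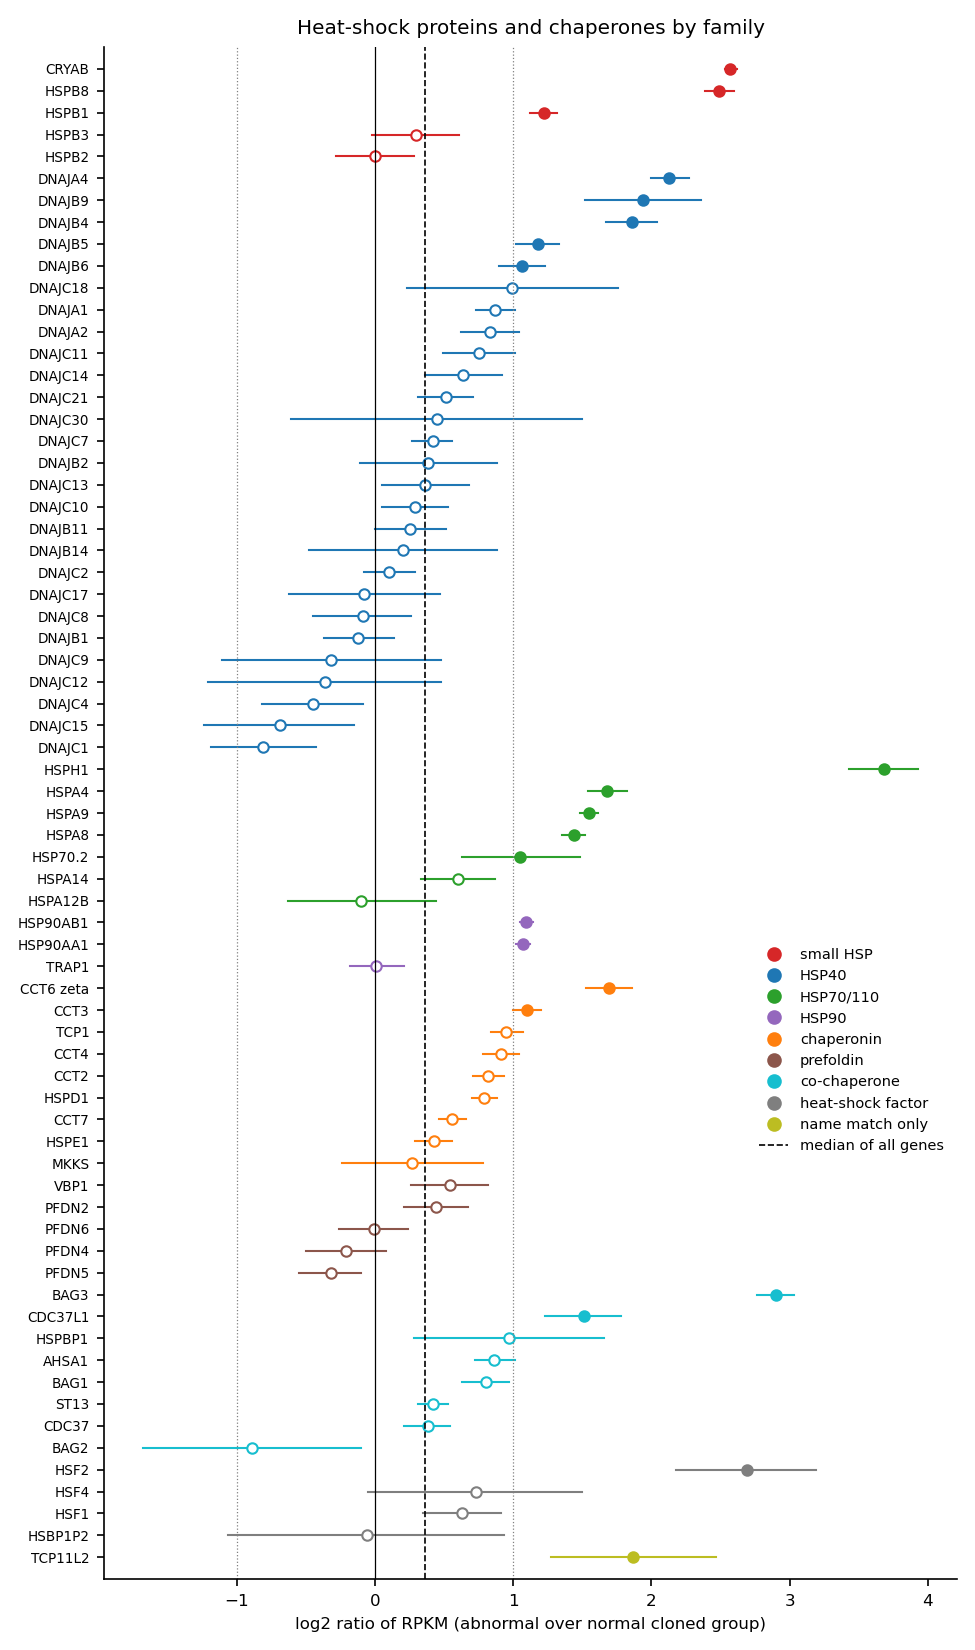
Log2 ratio (abnormal over normal RPKM, x axis) of the 69 members that reached 10 reads in each library, coloured by family, with 95% counting intervals. Filled points are called members, the dashed line is the median of all genes (0.36) and dotted lines mark a log2 ratio of 1 in either direction. The highest value is that of HSPH1 (3.68), and 47 of the 69 members lie above the dashed line.

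The small heat-shock proteins had the largest ratio of summed RPKM of the families, at 4.84. The sum was 1249 RPKM in the normal and 6045 RPKM in the abnormal library. CRYAB alone gave 75.7% (abnormal) and 61.6% (normal) of this sum, and without it the ratio was 3.06. With HSPB6, a small heat-shock protein outside the name match, counted in, the ratio was 3.15, near the 2.96 of the HSP70/110 family. The median log2 ratio was 1.22 for the small heat-shock proteins (0.76 with HSPB6) and 1.49 for the HSP70/110 family. After the correction for transcript length the medians without HSPB6 were 1.19 and 0.97. All 5 small heat-shock proteins reached 10 reads in each library and 3 were called higher, where 18.2% of all genes at this depth were. CRYAB, or alphaB-crystallin, which holds desmin and other filaments of the muscle fibre in solution, had 27563 reads (4578 RPKM) in the abnormal and 4730 reads (769 RPKM) in the normal library, a log2 ratio of 2.57 with an interval of 2.53 to 2.62. It was the most abundant member in both libraries. HSPB8, the partner of BAG3 in selective autophagy of damaged filament proteins, had 4551 reads (787.6 RPKM) against 826 reads (139.9 RPKM), a log2 ratio of 2.49. It moved from the rank of 7 among the members by RPKM in the normal library to the rank of 3 in the abnormal one. HSPB1, known as HSP27 and as a protector of actin filaments, had 2603 reads (580.6 RPKM) against 1139 reads (248.7 RPKM), a log2 ratio of 1.22 (1.12 to 1.32). Reads covered 57.5% and 49.5% of its transcript, and its call was lost after the median rescaling (0.86).

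The other 2 small heat-shock proteins among the members were not called, and HSPB7, for which no entry carried the symbol, is not analysed here. HSPB2, which binds the kinase DMPK, had 200 reads (58.7 RPKM) in the abnormal and 204 reads (58.6 RPKM) in the normal library, a log2 ratio of 0.00 with an interval of -0.28 to 0.28. HSPB3, its binding partner, had 179 against 149 reads, a log2 ratio of 0.30 (-0.02 to 0.61). HSPB6, or HSP20, carries another protein name in the annotation and is therefore no member, and it had 4648 reads (795.6 RPKM) against 5514 reads (923.8 RPKM), a log2 ratio of -0.22 (-0.27 to -0.16). HSPB6 was thus above CRYAB in RPKM in the normal library and below it in the abnormal one, with a ratio of CRYAB to HSPB6 of 0.832 and 5.75. HSPB6, HSPB2 and HSPB3 lay below the median gene of all lengths while CRYAB and HSPB8 lay more than 2 log2 units above it. These transcripts are short, and the shift of genes of like length can be smaller. After the correction for transcript length HSPB2 had a log2 ratio of -0.093 and that of HSPB3 stayed positive. CRYAB then had 2.37 and HSPB8 2.32.

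CRYAB and HSPB2 are neighbours that are read in opposite directions. In Sscrofa9 CRYAB lies on chromosome 9 from 38490730 to 38494307 on the minus strand and HSPB2 from 38494909 to 38495442 on the plus strand, with 601 bases between them. Their log2 ratios were 2.57 and 0.00, and the intervals did not overlap. The mitochondrial chaperonin genes HSPD1 and HSPE1 form a like pair on chromosome 15, from 94899855 to 94913294 on the minus strand and from 94913554 to 94915922 on the plus strand, with 259 bases between them. Their log2 ratios were 0.79 (0.70 to 0.88) and 0.43 (0.29 to 0.56), both above the median gene and both under the fold limit.

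**Figure D2:**
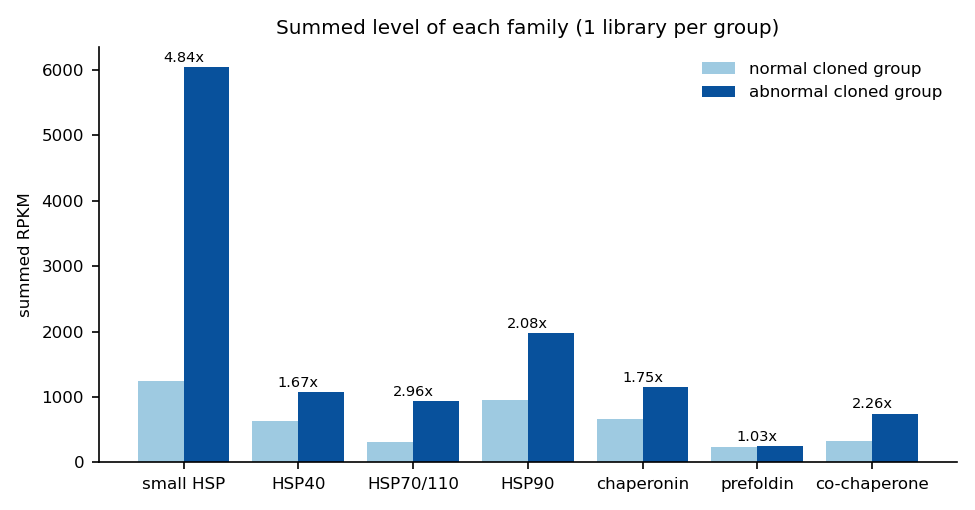
Summed RPKM (y axis) of each chaperone family in the normal (light) and abnormal (dark) cloned group, 1 library each, with the ratio above each pair of bars. The ratio runs from 1.03 for prefoldin to 4.84 for the small heat-shock proteins.

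In the HSP70/110 family 6 of 10 members were called higher, where 12.0% of all genes were. Of the 7 members that reached 10 reads in each library 5 were called higher, where 18.2% of all genes were. The summed level of the family was 935.4 RPKM against 315.9 RPKM, a ratio of 2.96. HSPH1, the HSP110 protein that exchanges the nucleotide of HSP70 and pulls aggregates apart with it, had 1669 reads (72.7 RPKM) in the abnormal and 133 reads (5.67 RPKM) in the normal library. This 12.8-fold difference, a log2 ratio of 3.68 (3.43 to 3.93), was the largest of any member that reached 10 reads in each library. HSPH1 lies on chromosome 11 from 7124693 to 7150241 on the minus strand. HSPA4, a second HSP110 protein, had 1679 reads (83.6 RPKM) against 534 reads (26.0 RPKM), a log2 ratio of 1.68. Both exchange factors of this branch were thus called, while their relative HSPA4L had only 14 and 7 reads.

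The HSP70 proteins themselves were higher in the cytosol and the mitochondrion. HSPA8, the constitutive cytosolic HSP70, had 4178 reads (294.4 RPKM) against 1577 reads (108.8 RPKM), a log2 ratio of 1.44 (1.35 to 1.52). Reads covered 50.3% and 49.3% of its transcript, and its log2 ratio was 0.93 after a correction for transcript length. HSPA9, or mortalin, which draws imported proteins into the mitochondrial matrix, had 7836 reads (440.4 RPKM) against 2743 reads (150.9 RPKM), a log2 ratio of 1.55. By the RPKM of unique reads over the whole transcript it was above HSPA8 in both libraries, with 99.6% and 99.4% of its length covered, so that the order of the pair is uncertain where HSPA8 lacks unique reads. HSPA13, or STCH, an HSP70-like protein of the microsomes, had 76 reads (8.31 RPKM) against 9 reads (0.963 RPKM), a log2 ratio of 3.11 with a wide interval of 2.13 to 4.09. HSP70.2, a heat shock-related 70 kDa protein 2-like entry on chromosome 7, was a borderline call with 134 against 66 reads, a log2 ratio of 1.05 (0.63 to 1.48).

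The other HSP70 members did not pass. HSPA14, a chaperone of the ribosome, had 268 against 181 reads (0.60), and the distant endothelial relative HSPA12B had 53 against 58 reads (-0.10). HSPA12A had 5 and 1 reads. No entry carried the symbol HSPA1A, HSPA1B, HSPA1L or HSPA6, so the stress-inducible HSP70 genes under these names are not analysed here. Since cytosolic HSP70 genes are close in sequence and only unique reads were counted, the reads of HSPA8 and HSP70.2 are uncertain to that extent.

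The cytosolic HSP90 proteins were about 2 times as high in the abnormal cloned group. HSP90AA1, the inducible form, had 10115 reads (1221 RPKM) against 4912 reads (580.3 RPKM), a log2 ratio of 1.07 (1.02 to 1.12). HSP90AB1, the constitutive form, had 11971 reads (729.8 RPKM) against 5727 reads (341.7 RPKM), a log2 ratio of 1.09 (1.05 to 1.14). The isoforms kept their proportion, with an RPKM ratio of HSP90AA1 to HSP90AB1 of 1.67 (abnormal) and 1.70 (normal). TRAP1, the HSP90 of the mitochondrion, had 407 and 412 reads (28.4 and 28.1 RPKM), a log2 ratio of 0.01 (-0.18 to 0.21). Both cytosolic forms were just past the fold limit, at 0.71 and 0.74 after the median rescaling, where neither was called.

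**Figure D3:**
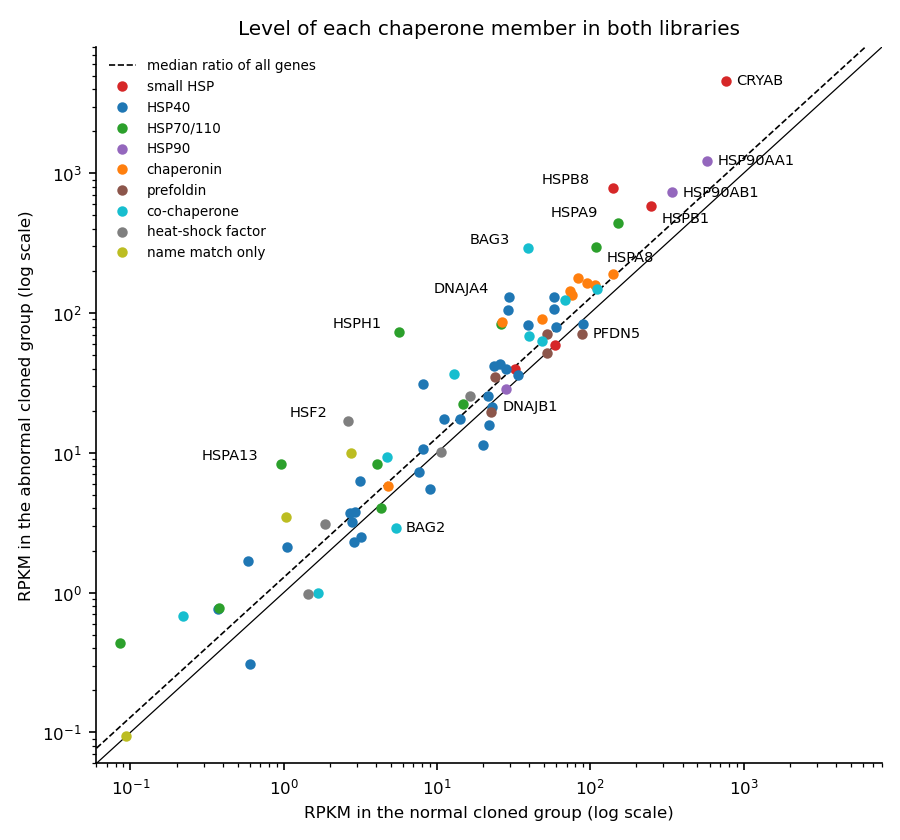
RPKM of the members in the normal (x axis) and abnormal (y axis) cloned group, both on log scales, for members with a read in both libraries, coloured by family. The solid line marks equal levels and the dashed line the median ratio of all genes. CRYAB (4578 against 769 RPKM) is the highest point, HSPH1, BAG3, HSF2 and HSPA13 lie farthest above the lines, and PFDN5 and BAG2 lie below them.

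The HSP40 family, with 35 members and 5 called higher, is divided into 3 classes. Its share called higher, 14.3% of all entries and 18.5% of those that reached 10 reads in each library, was close to that of all genes (12.0% and 18.2%). Of 4 DNAJA entries 1 was called higher, of 10 DNAJB entries 4 were called higher, and of 21 DNAJC entries 0 were called. The median log2 ratio of the members that reached 10 reads in each library was 0.87 for 3 DNAJA, 0.72 for 8 DNAJB and 0.20 for 16 DNAJC proteins, and the summed RPKM had ratios of 2.49, 2.16 and 1.13. DNAJA and DNAJB proteins are the general HSP40 partners of HSP70, whereas DNAJC proteins share only the J domain and have varied tasks. The difference between the classes was not tested.

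DNAJA4, a type I partner of HSP70, had 2450 reads (129.4 RPKM) against 570 reads (29.5 RPKM), a log2 ratio of 2.13 (2.0 to 2.27). An overlapping second entry of this gene had 0 and 1 reads, so that nearly all its unique reads fell to the first. DNAJB4, a partner of HSP70 in muscle whose loss causes a myopathy in people, had 1054 reads (105.7 RPKM) against 297 reads (29.1 RPKM), a log2 ratio of 1.86. These were the HSP40 members still called with an assumed variation of 0.2. DNAJB9, or ERdj4, which binds the stress sensor IRE1 in the endoplasmic reticulum, had 214 reads (31.0 RPKM) against 57 reads (8.09 RPKM), a log2 ratio of 1.94. DNAJB5 had 1087 against 491 reads (1.18) and DNAJB6, which keeps aggregation-prone proteins soluble and is mutated in a limb-girdle muscular dystrophy, had 863 against 422 reads (1.06). The calls of DNAJB5 and DNAJB6 were lost after the median rescaling.

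DNAJA1, the most general type I HSP40, stood just under the fold limit with 1184 reads (106 RPKM) against 662 reads (58.0 RPKM), a log2 ratio of 0.87 (0.73 to 1.01). DNAJB1, the classical stress-inducible HSP40, had 232 reads (21.2 RPKM) against 257 reads (22.9 RPKM), a log2 ratio of -0.12 (-0.37 to 0.14). In RPKM DNAJB1 was lower than its relatives DNAJB4 and DNAJB5 in both libraries, and the interval of its log2 ratio did not overlap theirs. Among DNAJC proteins, DNAJC7 (901 and 689 reads, 0.42), the splicing factor partner DNAJC8 (122 and 133 reads, -0.09) and DNAJC2, a factor of the ribosome (489 and 465 reads, 0.10), were close to or below the median gene. DNAJC1, a membrane protein of the endoplasmic reticulum, had 86 reads (11.5 RPKM) against 154 reads (20.1 RPKM), a log2 ratio of -0.81 (-1.19 to -0.43) at an Audic-Claverie FDR of 1.10e-04. It was the only one of the 14 members with a negative log2 ratio and at least 10 reads in both libraries that passed the FDR. DNAJC15, an inner-membrane protein of the mitochondrion, had 43 against 71 reads (-0.69).

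The chaperonins had log2 ratios of one sign, most of them under the fold limit. All 9 members that reached 10 reads in each library had a positive log2 ratio, from 0.27 to 1.69, and 8 lay above the median gene. Of all genes that reached this depth, 68.7% had a positive log2 ratio. The median over all chaperonin members was 0.81, and 0.35 after the correction for transcript length. Of the 9 members that reached 10 reads in each library 2 were called higher, where 18.2% of all genes were. Both were subunits of the CCT complex, which folds actin and tubulin. CCT3 had 2270 reads (178.1 RPKM) against 1082 reads (83.1 RPKM), a log2 ratio of 1.10 (1.0 to 1.20). The zeta subunit CCT6 had 1209 reads (86.1 RPKM) against 382 reads (26.6 RPKM), a log2 ratio of 1.69 (1.53 to 1.86), while a second zeta entry on chromosome 15 had 0 and 4 reads. TCP1 had a log2 ratio of 0.95 (1766 and 931 reads), CCT4 of 0.91, CCT2 of 0.82 and CCT7 of 0.56 (1933 and 1336 reads). The interval of CCT6 lay above those of the other 5 CCT subunits listed here, all of which are parts of one double ring. CCT5 and CCT8 are not analysed here, as no entry carried these symbols.

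Of the mitochondrial chaperonin, HSPD1 (HSP60) had 2406 reads (164.5 RPKM) against 1422 reads (95.2 RPKM) and its lid HSPE1 (HSP10) had 977 reads (189.4 RPKM) against 743 reads (141 RPKM). Neither was called. MKKS, a chaperonin-like protein of the centrosome, had 66 and 56 reads. In the mitochondrion HSPA9 was therefore called, HSPD1 and HSPE1 were positive without a call, and TRAP1 was near 0.

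Prefoldin, the complex that hands new actin and tubulin to CCT, was the family without a call, with 5 subunits measured and summed levels of 247.5 and 239.3 RPKM (a ratio of 1.03). PFDN5 had 277 reads (70.7 RPKM) against 354 reads (88.5 RPKM), a log2 ratio of -0.32 (-0.55 to -0.10). PFDN6 had 243 reads (52.1 RPKM) against 250 reads (52.4 RPKM), and PFDN2 had 360 reads (70.4 RPKM) against 271 reads (51.9 RPKM), with log2 ratios of -0.01 and 0.44. VBP1 had 0.54 and PFDN4 -0.21. The subunits lay on both sides of the median gene, and after the median rescaling their summed ratio was 0.806. Their median log2 ratio was -0.01, and -0.041 after the correction for transcript length. All 5 reached 10 reads in each library, and at this depth 18.2% of all genes were called higher. No entry carried the symbol PFDN1.

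Among the co-chaperones 2 of 10 were called higher, where 12.0% of all genes were. Both were among the 8 that reached 10 reads in each library, and at this depth 18.2% of all genes were called higher. BAG3, which links HSP70 and HSPB8 to the autophagy of filamin and other Z-disc proteins, had 3816 reads (292.6 RPKM) against 524 reads (39.3 RPKM), a 7.44-fold difference and a log2 ratio of 2.90 (2.76 to 3.03). BAG3 lies on chromosome 14 from 135493542 to 135516967, as does HSPB8 from 33635995 to 33648538. It moved from the rank of 27 among the members by RPKM in the normal library to the rank of 8 in the abnormal one. Its relatives differed from it, since BAG1 had 721 against 423 reads (0.80), BAG2 had 19 against 36 reads (-0.89, -1.68 to -0.10) and BAG4 had 7 and 12 reads. BAG3, HSPB8 and CRYAB, 3 proteins of the Z-disc, each lay more than 2 log2 units above the median gene.

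Outside the BAG proteins, 1 co-chaperone among the members was called. CDC37L1, a relative of the kinase-specific HSP90 co-chaperone CDC37, was called higher with 392 reads (36.4 RPKM) against 141 reads (12.8 RPKM), a log2 ratio of 1.51 (1.23 to 1.78). CDC37 itself had 661 and 520 reads, a log2 ratio of 0.38. AHSA1, which speeds the ATPase of HSP90, had 1098 reads (124.1 RPKM) against 616 reads (68.2 RPKM), a log2 ratio of 0.86. ST13, or HIP, which steadies the client-bound state of HSP70, had 1610 reads (147.5 RPKM) against 1229 reads (110.2 RPKM), a log2 ratio of 0.42. HSPBP1, an exchange factor of HSP70, had 48 and 25 reads (0.97).

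Heat-shock factors are the transcription factors that switch on chaperone genes. Of the 5 entries for them and their binding proteins 1 was called higher, where 12.0% of all genes were. It was among the 4 that reached 10 reads in each library, and at this depth 18.2% of all genes were called higher. HSF2 had 227 reads (16.8 RPKM) against 36 reads (2.61 RPKM), a 6.44-fold difference and a log2 ratio of 2.69 (2.18 to 3.19). HSF1, the main factor of the heat-shock response, which is controlled largely as a protein, had 258 reads (25.6 RPKM) against 170 reads (16.5 RPKM), a log2 ratio of 0.63 (0.35 to 0.91). HSF1 was thus above HSF2 in RPKM in both libraries, with a wider gap in the normal one. HSF4 had 34 and 21 reads, the HSBP1-like entry HSBP1P2 15 and 16 reads, and HSBP1L1 4 and 6 reads.

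The 3 entries that matched by name alone are not known as chaperones. TCP11L2, named for a t-complex protein, was called higher with 100 against 28 reads (1.87), TSTD3, listed under a heat shock protein 67B2 name, had 23 against 7 reads (1.75, Audic-Claverie FDR 0.0147) and TCP11 had 1 read in each library. Without them 21 members were called higher, the transcription factor HSF2 among them. In all, 17 members had fewer than 10 reads in at least 1 library, and of these only HSPA13 was called. Of the 48 members that reached 10 reads in each library and no call, 20 passed the FDR with a positive log2 ratio under 1 and DNAJC1 passed it with a negative one. The like shares of all genes are not given here.

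**Figure D4:**
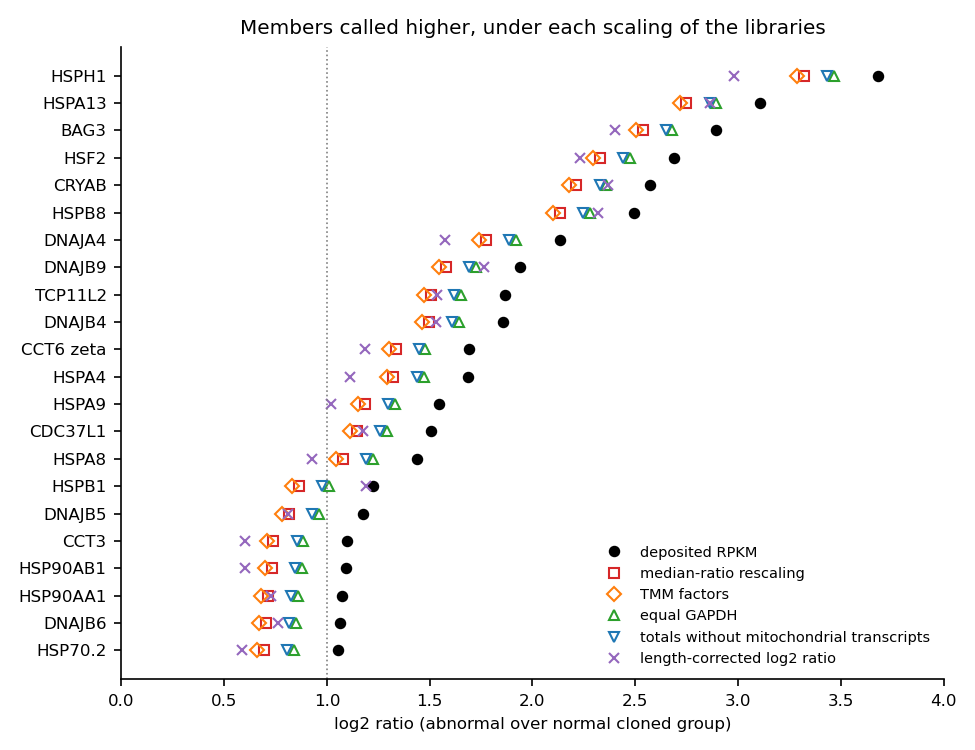
Log2 ratio (x axis) of the 22 members called higher, under the deposited RPKM (black) and 5 other scalings of the libraries (coloured symbols), with the fold limit as a dotted line. HSPH1 to CDC37L1 stay to the right of the line under every scaling shown, and the members from HSP70.2 to DNAJB5 lie left of it under each of the 5 other scalings.

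The values close to the limit show where the count of 22 was set. Just inside it lay HSP70.2 (1.05), DNAJB6 (1.06), HSP90AA1 (1.07), HSP90AB1 (1.09) and CCT3 (1.10), and just outside it TCP1 (0.95), CCT4 (0.91), DNAJA1 (0.87) and AHSA1 (0.86). At a log2 ratio of at least 2 the called members were HSPH1, HSPA13, BAG3, HSF2, CRYAB, HSPB8 and DNAJA4.

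Other genes of protein folding were read from a list of 41 symbols, of which 9 were members and 3 (STIP1, GRPEL1 and P4HB) had no entry under their symbol. The rest gave 31 entries, of which 9 were called higher and 0 lower, where 12.0% of all genes were called higher. Of the entries, 30 reached 10 reads in each library, the 9 called ones among them. At this depth 18.2% of all genes were called higher. After the median rescaling 4 entries were called higher, namely FKBP5, PTGES3, CHORDC1 and CLPX, against 6.48% of all genes. The latter share is not matched for read depth, and the like share of genes at this depth is not given here. The median log2 ratio of the entries was 0.49, beside 0.35 over all genes. Of the 10 entries of HSP90 co-chaperones outside the members 3 were called. AHSA1, AHSA2 and CDC37, which are on the list as well, are members and were not called. FKBP5, an immunophilin that holds steroid receptors on HSP90 and is induced by glucocorticoids, had 815 reads (82.8 RPKM) against 136 reads (13.5 RPKM), a log2 ratio of 2.61 (2.35 to 2.88). PTGES3, or p23, which closes the HSP90 clamp, had 763 against 277 reads (1.49), and CHORDC1 had 418 against 148 reads (1.53). FKBP4, the close relative of FKBP5, had a log2 ratio of 0.77 (0.66 to 0.87), whose interval lay below that of FKBP5.

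In the endoplasmic reticulum 4 of 11 entries were called higher, where 12.0% of all genes were. The 4 were among the 10 that reached 10 reads in each library, and at this depth 18.2% of all genes were called higher. After the median rescaling 0 of the 11 were called, where 6.48% of all genes were called higher. HSPA5, or BiP, the HSP70 of this compartment, had 2321 reads (178 RPKM) against 957 reads (71.9 RPKM), a log2 ratio of 1.31 (1.20 to 1.42). HYOU1, its exchange factor, had 264 against 108 reads (1.32), PDIA4, a disulphide isomerase, 709 against 302 reads (1.26), and the lectin chaperone CANX 525 against 262 reads (1.03). HSP90B1, or GRP94, had 3149 reads (269.5 RPKM) against 2060 reads (172.6 RPKM), a log2 ratio of 0.64 (0.56 to 0.72), without a call. CALR had 0.18 and PDIA3 0.11, both below the median gene, and of the DnaJ members described here for this compartment DNAJB9 was called (1.94) while DNAJB11 (0.25), DNAJC10 (0.29) and DNAJC1 (-0.81) were not. DNAJC1 was called lower after the median rescaling (-1.17).

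The mitochondrial unfoldase CLPX was called with 352 against 105 reads (1.78), and its neighbour in function LONP1 had a log2 ratio of 0.29. Of the myosin chaperones SMYD1 was called with 123 against 57 reads (1.14), a call lost after the median rescaling (0.78). The entries of UNC45B, which folds the myosin head, had 22 against 16 and 40 against 41 reads. Reads covered only 3.77% (abnormal) and 4.37% (normal) of the first entry. The second is short, as its 40 reads gave 56.5 RPKM in the abnormal library. The level of UNC45B is therefore uncertain. STUB1, or CHIP, the ubiquitin ligase that marks HSP70 clients for breakdown, had 523 reads (66.4 RPKM) against 686 reads (85.2 RPKM), a log2 ratio of -0.36 (-0.52 to -0.20). STUB1 thus had a negative log2 ratio without a call, beside the calls of its partners BAG3, HSPB8 and HSPA8. Of the 3 entries of listed HSP70 co-chaperones outside the members 0 were called. ST13 and HSPBP1, which are on the list as well, are members and were not called.

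**Figure D5:**
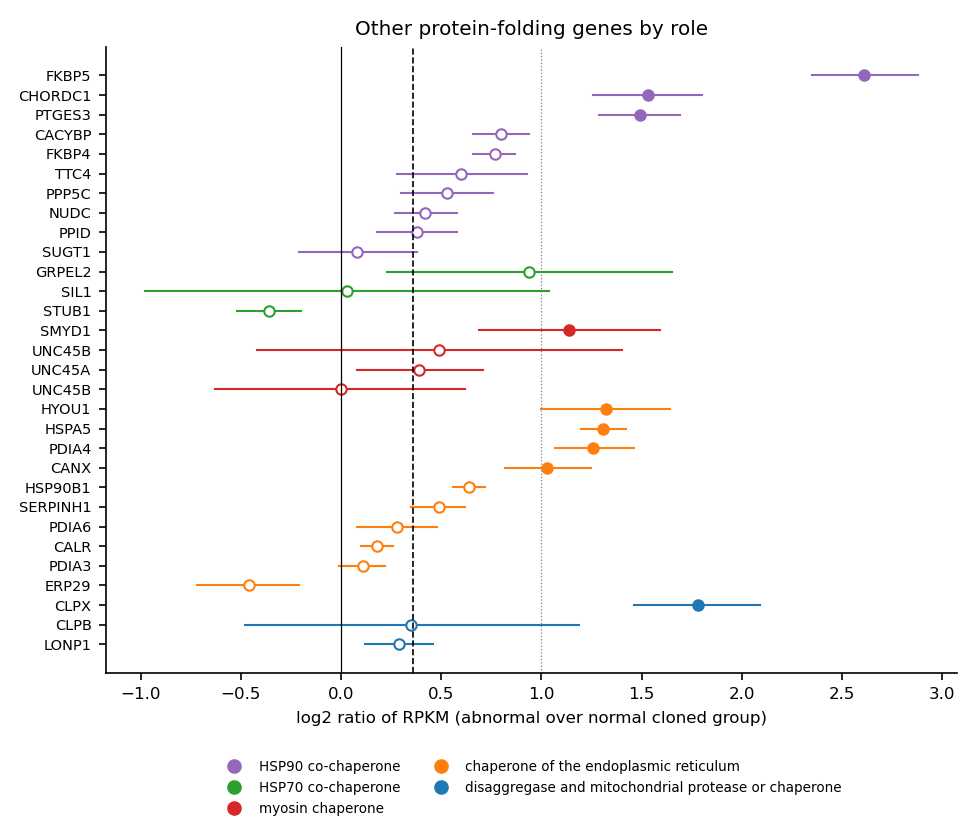
Log2 ratio (abnormal over normal RPKM, x axis) of the 30 listed protein-folding entries outside the members that reached 10 reads in each library, coloured by role, with 95% counting intervals. Filled points are called genes, the dashed line is the median of all genes and the dotted line a log2 ratio of 1. FKBP5 (2.61) is the highest and STUB1 (-0.36) and ERP29 (-0.46) are the lowest.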

How the data were processed

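RNA-Seq was analysed in 1 library of the abnormal and 1 of the normal cloned group, assigned by their titles. The authors enriched mRNA with oligo(dT), trimmed and filtered the reads, and aligned them by SOAPaligner/soap2 at no more than 2 mismatches. The deposited count of each Sscrofa9 transcript is of its unique reads and is not normalized. Its deposited RPKM divides this count by length and library total, and a deposited percent gives the share of its length that reads covered. Both counts summed to the totals in the deposited tables. Transcripts left out of a table were taken as 0. A count of 3 reads, the limit that 0 reads allow, corresponds to 0.47 (abnormal) and 0.46 (normal) reads per 1 M (RPM).

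Tables were joined on the gene identifier, and members were named by the deposited symbols, a RefSeq symbol table (Sscrofa11.1) or the protein name. Log2 ratios were taken of RPKM, with 0 set to 0.001. The Audic-Claverie test (two-sided by doubling) was adjusted over 12535 genes. Intervals of log2 ratios were derived from 95% Wilson intervals of the proportion of reads that the abnormal library gave. A model with replicates could not be fitted, and its place was taken by this test, on which the study's own was based. Alternatives were rescaling by the median ratio, by TMM (edgeR 4.0.16), to equal GAPDH or without mitochondrial transcripts, a pseudocount of 1 RPKM, Fisher's exact test on the reads, a minimum of 10 reads in each library, the exact test of edgeR under an assumed variation, a doubled log2 threshold, removal of the running median over 501 genes ordered by length, and other membership. The scripts ran on Python 3.11.15 and R 4.3.3 and were tested on simulated data.

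Named genes were every called member, the 3 members of each family with the highest mean RPKM, HSPH1, CRYAB, BAG3 and HSPB8, the called genes of the protein-folding list, and HSF1, HSF2, UNC45B, SMYD1, HSPA5 and HSP90B1. Other genes named, HSPB6, STUB1 and DNAJC1 among them, were chosen after their values were seen. The members and lists were chosen with earlier results of these data known. Promoter sequences were not analysed here.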

Additional observations from a re-analysis of the deposited data

How the results depend on the processing

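Of the 22 members called higher, 15 remained so under the median rescaling, TMM, totals without mitochondrial transcripts and the length correction, 16 with equal GAPDH, 21 with a pseudocount of 1 RPKM (without HSP70.2) or with 10 reads in both libraries (without HSPA13), and 22 with Fisher's exact test. With edgeR and an assumed variation of 0.2 the counts were 8 members, 2 HSP40, 2 HSP70/110, 0 HSP90, 0 chaperonins, 1 co-chaperone and 1 other folding gene, and with 0.4 each of these and the counts of small HSP and heat-shock factors were 0. At a log2 ratio of at least 2 the counts were 7 members, 1 HSP40, 2 HSP70/110, 0 HSP90, 0 chaperonins, 1 co-chaperone and 1 other folding gene. Under the median rescaling, TMM, equal GAPDH, totals without mitochondrial transcripts and the length correction, 3 HSP40, 0 HSP90 and 1 chaperonin were called higher. Other folding genes called were 4, 4 and 5 under the median rescaling, TMM and the length correction. Members called lower, HSP40 in each case, were 2 under the median rescaling and TMM and 1 under the other 3. The median log2 ratio of the members was 0.38, 0.34 and 0.38 under the median rescaling, TMM and the length correction. The ratio of summed RPKM was 2.16, 2.11, 2.39 and 2.34 under the median rescaling, TMM, equal GAPDH and totals without mitochondrial transcripts. It was 2.42 with HSPB6, DNAJB12, DNAJC19, DNAJC25 and BAG6 added, an alternative chosen after seeing the data. HSPA5 and other genes of the protein-folding list were not added.

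The direction turned for some uncalled values, among them CDC37 (0.38, 0.21 to 0.54) and DNAJC21 (0.51, 0.31 to 0.71), whose counting intervals leave out 0. The prefoldin ratio became 0.806, 0.788, 0.892 and 0.872 under those 4 scalings. Log2 ratios under the median rescaling were -0.11 for DNAJB11, -0.092 for MKKS, -0.16 for DNAJB14, -0.26 for DNAJC2, -0.35 for TRAP1, -0.064 for HSPB3, -0.066 for DNAJC10 and -0.36 for HSPB2. Under TMM they were -0.016 for CDC37, -0.030 for DNAJC13, -0.14 for DNAJB11, -0.13 for MKKS, -0.19 for DNAJB14, -0.29 for DNAJC2, -0.38 for TRAP1, -0.10 for HSPB3, -0.011 for DNAJB2, -0.10 for DNAJC10 and -0.39 for HSPB2. With equal GAPDH they were -0.013 for DNAJB14, -0.11 for DNAJC2, -0.20 for TRAP1 and -0.21 for HSPB2, and without mitochondrial transcripts -0.046, -0.14, -0.23 and -0.24 for the same genes. With the length correction they were -0.33 for DNAJC13, -0.047 for DNAJB11, -0.13 for MKKS, -0.16 for DNAJB14, -0.0053 for DNAJC21, -0.35 for DNAJC2, -0.47 for TRAP1, -0.23 for DNAJC10 and -0.093 for HSPB2.

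No paired analysis was possible because each group has 1 library and the labels carry no replicate numbers. For the same reason no replicate could be left out. The causes of these changes were not tested. The scalings move all genes of a library together by a log2 value of 0.36 (median), 0.39 (TMM), 0.21 (GAPDH) and 0.25 (without mitochondrial transcripts).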

Other observations

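Some entries with a chaperone symbol carry a protein name that the name match does not cover. HSPA5, HYOU1 and HSP90B1, described above from the protein-folding list, were such entries, and HSPA5 and HYOU1 were called higher. Those looked at outside that list included HSPB6 and DNAJC19, a subunit of the motor that imports proteins into mitochondria. DNAJC19 had 410 reads (62.2 RPKM) in the abnormal and 428 reads (63.6 RPKM) in the normal library, a log2 ratio of -0.03 (-0.23 to 0.16). DNAJB12, an HSP40 of the endoplasmic reticulum membrane, had 94 against 53 reads, a log2 ratio of 0.86 (0.37 to 1.34). The 2 entries of BAG6 had 6 against 11 and 16 against 6 reads, and DNAJC25 had 4 and 3 reads. None of the 6 entries outside that list, HSPB6 included, was called.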
